A study of Homo sapiens with 10 samples.

Results

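The 10 genes described here carry iron into the cell, store it, release it, export it or sense it, and were followed in KYSE-410. This is an established line grown from a squamous cell carcinoma of the human esophagus. They are TFRC, SLC11A2, STEAP3, FTH1, FTL, NCOA4, SLC40A1, LCN2, ACO1 and IREB2, found by their symbols, and all 10 were present among the 58302 genes of the deposited table. RNA was sequenced from cells collected 48 h after exposure to 1 of 2 inhibitors of SHIP2, a lipid phosphatase that acts on the messenger made by phosphoinositide 3-kinase. The groups were K149 at 2 µM (3 libraries) with its own solvent control of 0.1% DMSO (3 libraries), and AS1949490 at 20 µM (2 libraries) with its own 0.1% DMSO control (2 libraries). All libraries came from this single line. Separate cultures are not mentioned in the labels, so a p-value here speaks only to the spread among libraries, which may be technical. Because dose and DMSO libraries differ between the arms, each inhibitor is set against the DMSO of its own arm.

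Mammalian cells take up iron bound to transferrin through the transferrin receptor, reduce it in the endosome and pass it to the cytosol, where ferritin cages store what is not used and ferroportin exports the excess. The iron regulatory proteins, IRP1 and IRP2, tie these steps together after transcription. When iron is scarce they bind stem-loops called iron-responsive elements (IREs), which blocks translation of ferritin and ferroportin from the 5′ UTR and protects the transferrin receptor mRNA from decay through its 3′ UTR. Ferritin and ferroportin genes are also transcribed under NRF2, a factor that answers oxidative stress, so their mRNA level and their protein level can part ways. RNA levels alone were measured here.

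The IRE stem-loops are shown for those of the 10 genes in which a strict IRE pattern was matched. GENCODE 29 transcripts (GRCh38) were searched for a C, then 5 bases, the loop CAGTGN, and 5 bases that pair with the first 5 (Watson-Crick or G-T). In the lines that follow, each sequence runs 5′ to 3′ on the mRNA strand over 29 bases, and capitals mark the loop.
FTH1, 5′ UTR, chr11:61967574-61967602, minus strand: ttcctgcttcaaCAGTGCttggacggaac
FTL, 5′ UTR, chr19:48965335-48965363, plus strand: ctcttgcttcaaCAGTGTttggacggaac
SLC40A1, 5′ UTR, chr2:189580661-189580689, minus strand: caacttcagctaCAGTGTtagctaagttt
TFRC, 3′ UTR, chr3:196050979-196051007, minus strand: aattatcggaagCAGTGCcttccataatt
TFRC, 3′ UTR, chr3:196050575-196050603, minus strand: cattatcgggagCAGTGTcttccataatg
TFRC, 3′ UTR, chr3:196050510-196050538, minus strand: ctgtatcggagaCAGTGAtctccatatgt
TFRC, 3′ UTR, chr3:196050463-196050491, minus strand: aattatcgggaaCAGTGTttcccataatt

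The pattern was found in the 5′ UTR of 0.183% and in the 3′ UTR of 0.676% of 19684 coding genes. FTH1 carried it in 7 of 8 coding transcripts, FTL in its 1 coding transcript, SLC40A1 in 1 of 5 and TFRC, with 4 sites, in 3 of 4. No match was found in SLC11A2, IREB2, ACO1, STEAP3, NCOA4 or LCN2, which says only that these letters are not in those UTRs. The same search also found no match in the UTRs of EPAS1, CDC42BPA or PFN2, whose mRNAs are known to carry an IRE. The pattern thus misses some IREs, and a gene without a match may still be under this control.

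Levels are in CPM, the authors' deposited scale of reads relative to a common library total. Inferred depth was 20.02 to 23.05 M reads with K149 and 20.8 to 22.01 M with its DMSO, and 26.18 to 26.35 M with AS1949490 and 18.38 to 20.78 M with its DMSO. Values moved in steps of about 0.05 CPM, and a step is not exactly 1 read, since depth differed. The lowest value among the 10 genes, 1.5 CPM for SLC40A1, stood for few reads and the values of the other genes for many more. The 10 squamous epithelium markers gave a mixed picture (means over the 10 libraries). CDH1 (807 CPM), PERP (348.1 CPM), EPCAM (256.2 CPM), TP63 (100.4 CPM) and KRT17 (99.6 CPM) were the highest. DSG3 (8.78 CPM), KRT5 (5.36 CPM), KRT6A (2.74 CPM), KRT14 (0.774 CPM) and SOX2 (0.565 CPM) were low. Some of these markers moved with the inhibitors. KRT17 averaged 40.4 CPM with K149 and 84.6 CPM in its DMSO (limma adjusted p = 1.53e-07), and 101.3 CPM with AS1949490 and 209.4 CPM in its DMSO (limma adjusted p = 6.82e-06). KRT5 fell with both (log2 fold -2.22 with K149, limma adjusted p = 4.32e-08, and -0.52 with AS1949490, limma adjusted p = 0.0426), and DSG3, a desmosomal cadherin, rose with both (0.69 with K149, limma adjusted p = 0.000271, and 1.54 with AS1949490, limma adjusted p = 5.31e-06). Summed hepatocyte markers reached at most 1.3 CPM in any library, and HBB and TYROBP were at 0 in all libraries. Of 8 erythroid markers 1 passed the filter, EPOR, and the summed list ran from 15.5 to 18.8 CPM with K149 and 7.7 to 8.79 CPM in its DMSO, and from 11.2 to 11.4 CPM with AS1949490 and 5.7 to 6.94 CPM in its DMSO. Of 8 macrophage and leukocyte markers 1 passed, CD68, which shares 85.8% of its exon bases with other genes. Their sum ran from 22.6 to 27.3 CPM with K149 and 19.8 to 20.3 CPM in its DMSO, and from 20.6 to 22.8 CPM with AS1949490 and 12.4 to 12.8 CPM in its DMSO. The 8 fibroblast and endothelial markers summed to 257.5 to 275.1 CPM with K149 and 232.1 to 244.6 CPM in its DMSO, and to 45.2 to 46.3 CPM with AS1949490 and 38.9 to 44.4 CPM in its DMSO. Most of that sum was LUM, lumican, at a mean of 253.6 CPM with K149 and 221.5 CPM in its DMSO (limma adjusted p = 0.0115, and 0.077 after TMM scaling), and 25.1 CPM with AS1949490 and 14.2 CPM in its DMSO (limma adjusted p = 3.28e-06). These 3 sums and the squamous markers thus moved with the inhibitors, the fibroblast and endothelial sum also stood apart between the arms, and their part in the results was not tested. MALAT1 varied among the K149 libraries, and the summed nuclear-retained RNAs ran from 410.5 to 1095 CPM with K149 and from 307.9 to 408.4 CPM in its DMSO, and from 470.7 to 529.8 CPM with AS1949490 and 386.2 to 424.7 CPM in its DMSO. The part of these RNAs in the results was not tested. The pair of DMSO libraries in the AS1949490 arm stood farther apart than any other replicate pair (chi-square per degree of freedom 9.02, against 1.32 to 8.07). On the same measure, K149 replicate 2 stood apart from replicates 1 and 3 (6.5 and 8.07), which differed from each other by 2.6.

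Tests used limma on log2(CPM + 1) over the 17837 genes that averaged 1 CPM or more in some group, and an adjusted p (Benjamini-Hochberg) under 0.05 was a call. All 10 iron genes passed that filter. With K149, 9 of the 10 were called (66.4% of all genes tested): 8 rose, where 35.8% of all genes tested rose, and STEAP3 fell, where 30.6% fell. With AS1949490, 7 of the 10 were called (51.6% of all genes tested): 7 rose and 0 fell, where 32.1% of all genes tested rose and 19.5% fell. For AS1949490, STEAP3 was the 1 gene lower at an unadjusted limma p under the same threshold, and both edgeR and DESeq2 called that 1 fall. The K149 libraries lay clear above their controls for 8 genes and clear below for 1, against 37.7% and 32.6% of all genes tested. The AS1949490 libraries lay clear above theirs for 8 genes and clear below for 1, against 44.5% and 30.5% of all genes tested. With both inhibitors, 6 of the 10 rose (TFRC, FTH1, SLC40A1, SLC11A2, NCOA4 and LCN2), while 20.3% of all genes tested were called higher with both. Among these, the FTH1 call with AS1949490 was lost after TMM scaling (adjusted p = 0.131), in edgeR (adjusted p = 0.173) and in DESeq2 (adjusted p = 0.286). The median log2 fold of the 10 genes was 0.41 with K149, beside 0.04 for all genes tested, and 0.36 with AS1949490, beside 0.08 for all genes tested. For AS1949490 the share of calls that were higher moved with scaling, from 62.2% on the deposited CPM to 52.8% after TMM and 50.6% after median-of-ratios scaling.

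**Figure D1:**
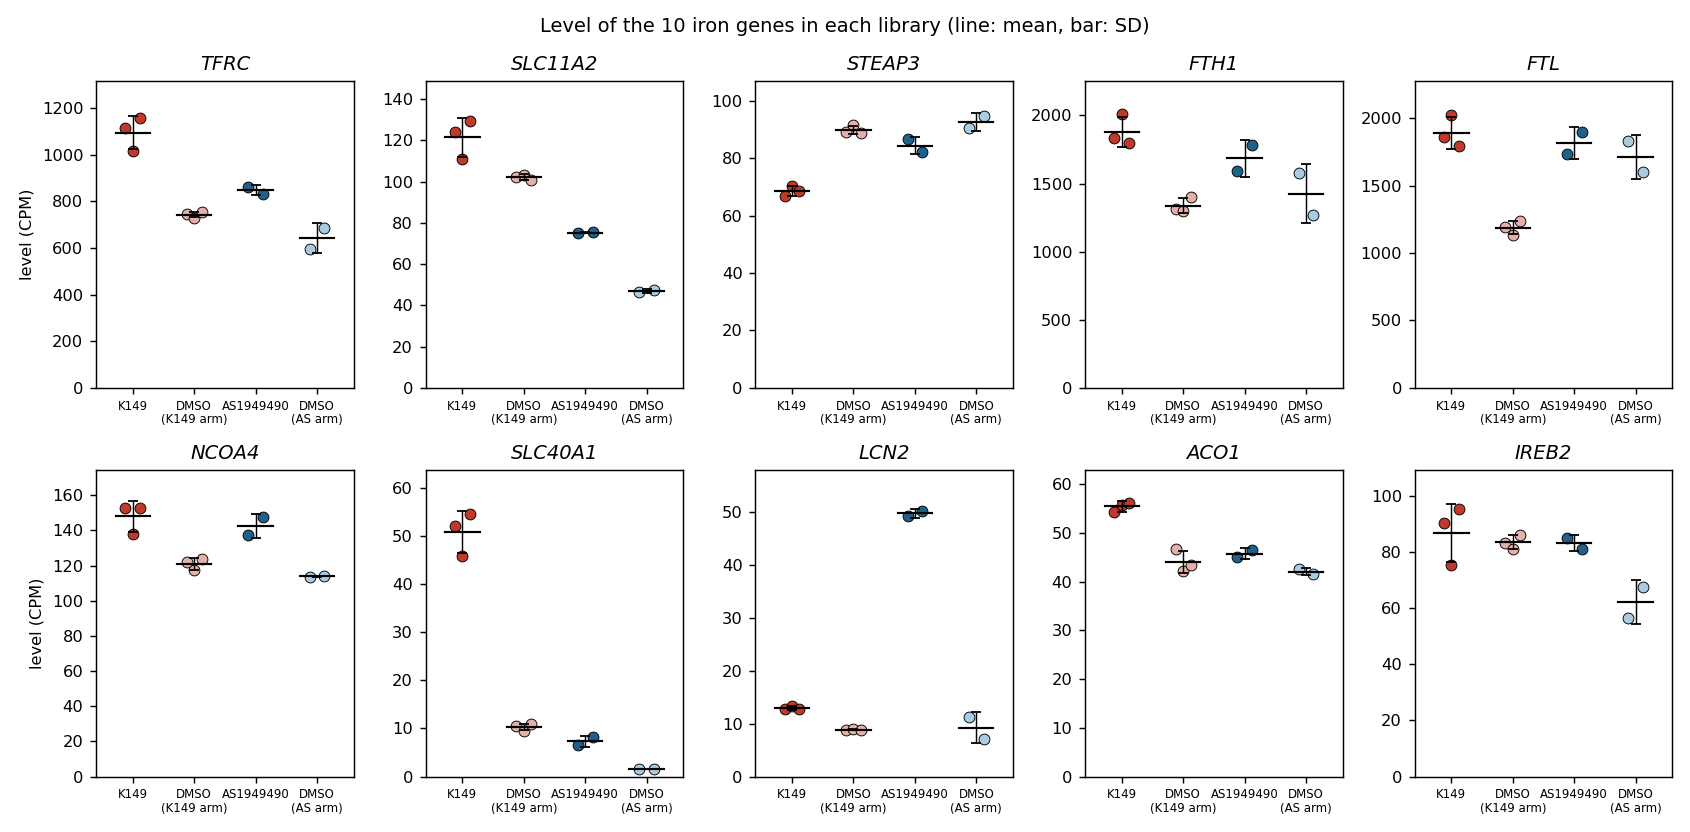
Level of each iron gene in CPM (linear axis from 0) in the 10 libraries, with K149, its DMSO, AS1949490 and its DMSO from left to right. Points are libraries, lines group means and bars SD. SLC40A1 stands far above its DMSO in both arms, and LCN2 reaches 49.1 and 50.2 CPM with AS1949490 alone.

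TFRC (chr3:196027183-196082189, minus strand), the receptor that brings transferrin-bound iron into the cell, rose with both inhibitors. It had 1113, 1016 and 1156 CPM with K149, against 744.4, 730.1 and 755.2 CPM in DMSO. It had 862.6 and 833.1 CPM with AS1949490, against 596.6 and 687.4 CPM in DMSO. Neither pair of groups overlapped. Its log2 fold was 0.56 ± 0.06 (SE) with K149 (limma adjusted p = 2.03e-06) and 0.40 ± 0.07 with AS1949490 (limma adjusted p = 0.000506). Over the 4 groups the order was K149, AS1949490, DMSO of the K149 arm and DMSO of the AS1949490 arm, with no overlap between neighbours. The K149 effect exceeded the AS1949490 effect by 0.15, with a 95% interval of -0.05 to 0.36 (limma adjusted p = 0.219). That difference was 0.25 without DMSO replicate 1 of the AS1949490 arm. It was 0.26 in edgeR on 8 libraries, which left out the same replicate.

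SLC11A2 (chr12:50979401-51028566, minus strand), which encodes DMT1, the transporter that moves ferrous iron out of the endosome, also rose in both arms, more with AS1949490. It had 123.9, 110.9 and 129.6 CPM with K149, against 102.4, 103.4 and 100.7 CPM in DMSO. With AS1949490 it had 75.2 and 75.5 CPM, against 46.3 and 47.7 CPM in DMSO. The treated libraries lay above their controls in both arms, but both AS1949490 libraries lay under all DMSO libraries of the K149 arm. In the fit, the log2 fold was 0.24 ± 0.06 with K149 (limma adjusted p = 0.00195) and 0.67 ± 0.07 with AS1949490 (limma adjusted p = 7.2e-06). The difference, -0.43 ± 0.09 with a 95% interval of -0.62 to -0.23, was itself called (limma adjusted p = 0.00213).

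STEAP3 (chr2:119223831-119265652, plus strand), the endosomal reductase that turns ferric into ferrous iron before DMT1 can carry it, was the 1 gene of the 10 that fell with K149. It had 66.8, 70.3 and 68.5 CPM with K149, against 89.0, 91.5 and 88.8 CPM in DMSO. In the other arm it had 86.5 and 82.3 CPM with AS1949490, against 90.5 and 94.8 CPM in DMSO. Treated libraries were lower than their controls in both arms, and the K149 libraries lay under all others. The log2 fold was -0.39 ± 0.05 with K149 (limma adjusted p = 9.57e-06) and -0.13 ± 0.06 with AS1949490 (limma adjusted p = 0.0777). The value with AS1949490 became a call after TMM scaling (-0.20, adjusted p = 0.0256) and in edgeR (-0.22, adjusted p = 0.00802). The effects differed by -0.25 ± 0.08 (limma adjusted p = 0.0181), a call lost with a replicate block (-0.25, adjusted p = 0.0558), after TMM or median-of-ratios scaling (adjusted p = 0.0517 and 0.0663), in edgeR (-0.21, adjusted p = 0.0519), in edgeR on 8 libraries (-0.18, adjusted p = 0.132) and in DESeq2 (-0.18, adjusted p = 0.145). It was also lost without DMSO replicate 2 of the K149 arm or AS1949490 replicate 1 (adjusted p = 0.0506 and 0.0914). STEAP3-AS1 on the other strand shares 11% of the exon bases of STEAP3, and the STEAP3-AS1 row had a log2 fold of -0.05 with K149 (limma adjusted p = 0.678).

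FTL (chr19:48965301-48966878, plus strand), the ferritin light chain that helps iron settle in the cage, rose with K149 and not detectably with AS1949490. It had 1860, 2024 and 1792 CPM with K149, against 1192, 1136 and 1239 CPM in DMSO. With AS1949490 it had 1733 and 1898 CPM, against 1830 and 1598 CPM in DMSO. The K149 libraries lay clear of their controls, whereas AS1949490 and its DMSO overlapped. Its log2 fold was 0.67 ± 0.06 with K149 (limma adjusted p = 6.77e-07), a 1.59-fold higher level. With AS1949490 it was 0.08 ± 0.08, with a 95% interval of -0.09 to 0.25 (limma adjusted p = 0.39), and its sign turned after median-of-ratios scaling (-0.0022). The effects differed by 0.58 ± 0.10 (95% interval 0.37 to 0.80, limma adjusted p = 0.000492). K149, AS1949490 and the DMSO of the AS1949490 arm overlapped in level, and the DMSO of the K149 arm lay under all of them.

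FTH1 (chr11:61959718-61967660, minus strand), the ferritin heavy chain that oxidises iron as it enters the cage, rose with K149 too. It had 1831, 2008 and 1801 CPM with K149, against 1312, 1302 and 1401 CPM in DMSO. In the other arm it had 1589 and 1782 CPM with AS1949490, against 1578 and 1272 CPM in DMSO. The K149 libraries did not overlap their controls, and the lower AS1949490 library was only just above the higher of its controls. In the fit, the log2 fold was 0.49 ± 0.08 with K149 (limma adjusted p = 6.28e-05) and 0.25 ± 0.09 with AS1949490 (limma adjusted p = 0.0375). The AS1949490 call was lost after TMM scaling (0.18, adjusted p = 0.131), in edgeR (0.16, adjusted p = 0.173), with a replicate block (adjusted p = 0.0698) and without DMSO replicate 2 of that arm (0.09, adjusted p = 0.381). Leaving out AS1949490 replicate 2 (0.17, adjusted p = 0.252) lost it as well. So did leaving out, from the DMSO of the K149 arm, replicate 1 (adjusted p = 0.0517) or replicate 2 (adjusted p = 0.0544). The difference of the effects was 0.24, with a 95% interval of -0.02 to 0.50 (limma adjusted p = 0.125). It was called without DMSO replicate 2 of the AS1949490 arm (0.40, limma adjusted p = 0.00622), in DESeq2 (0.32, adjusted p = 0.0459) and with the replicate block crossed in the AS1949490 arm (0.24, limma adjusted p = 0.0314).

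The FTH1 value is uncertain in 1 respect, since BEST1 on the other strand covers 62.4% of its exon bases. BEST1, a chloride channel gene best known from the retina, was listed at a mean of 1772 CPM with K149 and 1272 CPM in its DMSO, and at 1602 CPM with AS1949490 and 1340 CPM in its DMSO. Without knowing whether strand was used in counting, reads of FTH1 and BEST1 cannot be told apart. Rows of 25 FTH1 pseudogenes, led by FTH1P20, FTH1P8 and FTH1P7, together came to 0.693% to 1.49% of the FTH1 level in a library. Those of 14 FTL pseudogenes, led by FTLP3, FTLP14 and FTLP2, came to 0.205% to 0.361% of FTL.

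Set per length, FTL was the most abundant of the 10 genes in every group, at 2160 CPM per kb of transcript with K149 and 1350 CPM per kb in its DMSO. FTH1 followed at 1530 CPM per kb with K149 and 1090 CPM per kb in its DMSO, and TFRC came next at 214 CPM per kb with K149 and 145 CPM per kb in its DMSO. The ratio of FTL to FTH1 per kb was 1.39 to 1.42 with K149 and 1.22 to 1.27 in its DMSO. In the other arm that ratio was 1.49 to 1.53 with AS1949490 and 1.62 to 1.76 in its DMSO. The light chain thus stood higher against the heavy chain in K149 libraries than in their controls, and lower in AS1949490 libraries than in theirs, with no overlap in either arm. The ratios were not tested, and they carry the uncertainty of FTH1 given beside BEST1. Ferritin summed over both chains against TFRC was 15.5 to 19.8 with K149 and 16.5 to 17.3 in its DMSO, which overlapped, and 19.4 to 22.2 with AS1949490 and 21.2 to 28.9 in its DMSO, which overlapped too.

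**Figure D2:**
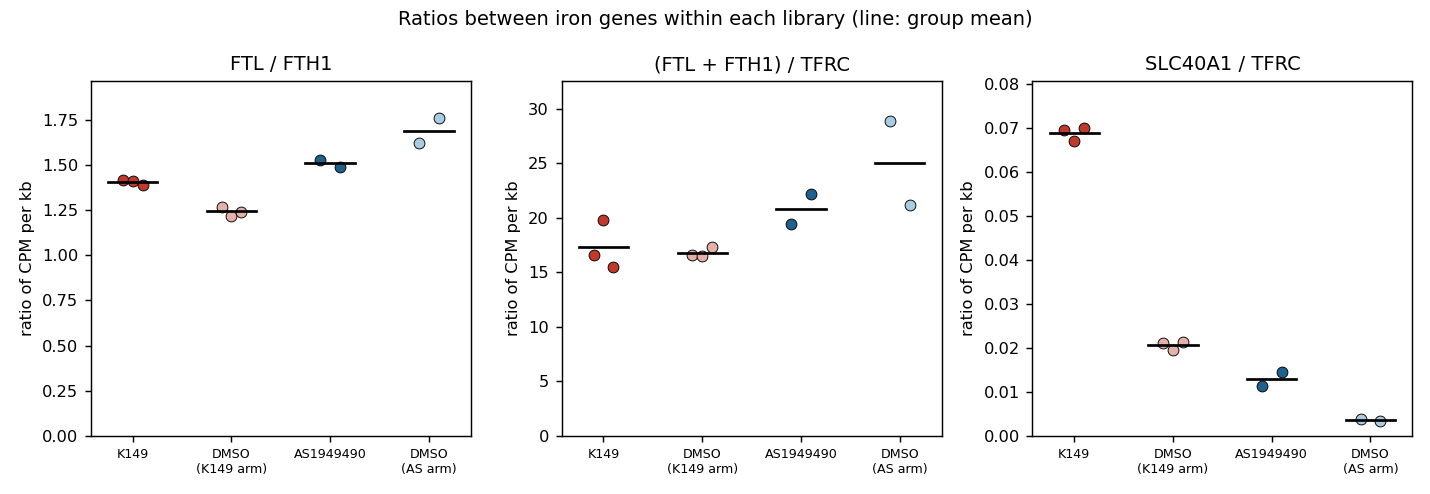
Ratios of CPM per kb between iron genes within each library, for FTL to FTH1, both ferritin chains to TFRC, and SLC40A1 to TFRC (axes from 0, points libraries, lines group means). FTL to FTH1 is higher with K149 and lower with AS1949490 than in the DMSO of the same arm, while ferritin to TFRC overlaps in both arms.

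NCOA4 (chr10:46005088-46030714, minus strand), the receptor that delivers ferritin to the autophagosome so that stored iron is released, rose in both arms. It had 153.0, 138.0 and 152.7 CPM with K149, against 121.9, 117.3 and 123.8 CPM in DMSO. With AS1949490 it had 137.5 and 147.4 CPM, against 113.7 and 114.0 CPM in DMSO. All treated libraries lay above all DMSO libraries. The log2 fold was 0.29 ± 0.05 with K149 (limma adjusted p = 0.000319) and 0.32 ± 0.07 with AS1949490 (limma adjusted p = 0.00117). The difference was -0.03, with a 95% interval of -0.22 to 0.15 (limma adjusted p = 0.779), and its sign turned after median-of-ratios scaling (0.02).

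SLC40A1 (chr2:189560579-189583758, minus strand), which encodes ferroportin, the known iron exporter of mammalian cells, had the largest log2 fold of the 10 with K149 and the second largest with AS1949490. It had 52.1, 45.9 and 54.5 CPM with K149, against 10.5, 9.54 and 10.9 CPM in DMSO. In the other arm it had 6.54 and 8.14 CPM with AS1949490, against 1.55 and 1.5 CPM in DMSO. The 4 groups did not overlap at any point, and the AS1949490 libraries were below even the DMSO libraries of the K149 arm. The ratio of mean CPM was 4.92 with K149 and 4.82 with AS1949490. On the log2(CPM + 1) scale the folds were 2.19 ± 0.10 with K149 (limma adjusted p = 1.64e-10) and 1.72 ± 0.12 with AS1949490 (limma adjusted p = 2.51e-07). Their difference, 0.47 ± 0.15, was called (limma adjusted p = 0.0234), but it depended on the added pseudocount. With a pseudocount of 0.5 CPM it was 0.30 (adjusted p = 0.156), and in edgeR it was 0.08 (adjusted p = 0.822). It was likewise lost without K149 replicate 1 or 3, DMSO replicate 2 of the K149 arm or AS1949490 replicate 1 (adjusted p = 0.0517 to 0.136).

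LCN2 (chr9:128149071-128153455, plus strand) encodes lipocalin 2, a secreted protein that binds iron-loaded siderophores and is induced in inflamed epithelia. Its rise was far larger with AS1949490. It had 12.7, 13.4 and 12.7 CPM with K149, against 8.85, 8.95 and 8.75 CPM in DMSO. With AS1949490 it had 49.1 and 50.2 CPM, against 11.3 and 7.15 CPM in DMSO. Treated libraries were above their controls in both arms, and the controls of both arms overlapped. Its log2 fold was 0.50 ± 0.12 with K149 (limma adjusted p = 0.00177) and 2.34 ± 0.14 with AS1949490 (limma adjusted p = 1.17e-07), a 5.37-fold ratio of mean CPM in the AS1949490 arm. The K149 call ended with no filter on low values (adjusted p = 0.05). The effects differed by -1.84 ± 0.18 (95% interval -2.23 to -1.44, limma adjusted p = 3.74e-06). Its cell-surface receptor SLC22A17 reached at most 0.1 CPM in any library, and MMP9, the protease that lipocalin 2 can bind, also reached at most 0.1 CPM.

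ACO1 (chr9:32384603-32454769, plus strand) encodes IRP1, which is cytosolic aconitase when it holds an iron-sulfur cluster and an RNA-binding protein when it does not. It had 54.2, 55.8 and 56.2 CPM with K149, against 46.6, 42.1 and 43.5 CPM in DMSO. In the other arm it had 45.0 and 46.5 CPM with AS1949490, against 42.5 and 41.5 CPM in DMSO. Neither pair of groups overlapped, but the AS1949490 gap was small. In the fit, the log2 fold was 0.32 ± 0.06 with K149 (limma adjusted p = 0.000153) and 0.12 with AS1949490 (95% interval -0.03 to 0.27, limma adjusted p = 0.153). The difference, 0.20 with a 95% interval of 0.02 to 0.39, missed the threshold (limma adjusted p = 0.0793) and passed it in edgeR (0.26, adjusted p = 0.0401).

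IREB2 (chr15:78437431-78501456, plus strand) encodes IRP2, which is broken down when iron is plentiful. It rose with AS1949490, while no change with K149 was detected. It had 90.2, 75.3 and 95.2 CPM with K149, against 83.4, 81.0 and 86.0 CPM in DMSO. With AS1949490 it had 85.1 and 81.1 CPM, against 56.5 and 67.6 CPM in DMSO. The K149 libraries fell on both sides of their controls, and the AS1949490 libraries were level with the DMSO of the K149 arm. The log2 fold was 0.05 ± 0.08 with K149 (95% interval -0.13 to 0.23, limma adjusted p = 0.605) and 0.42 ± 0.10 with AS1949490 (limma adjusted p = 0.00375). The AS1949490 call was lost in edgeR on 8 libraries (0.22, adjusted p = 0.075) and with no filter on low values (adjusted p = 0.0872). The difference, -0.37 ± 0.13, was called (limma adjusted p = 0.0387) but not in edgeR (-0.31, adjusted p = 0.0739), and leaving out any single library other than K149 replicate 1 or 3 or DMSO replicate 2 of the AS1949490 arm also lost it (adjusted p = 0.0523 to 0.154).

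**Figure D3:**
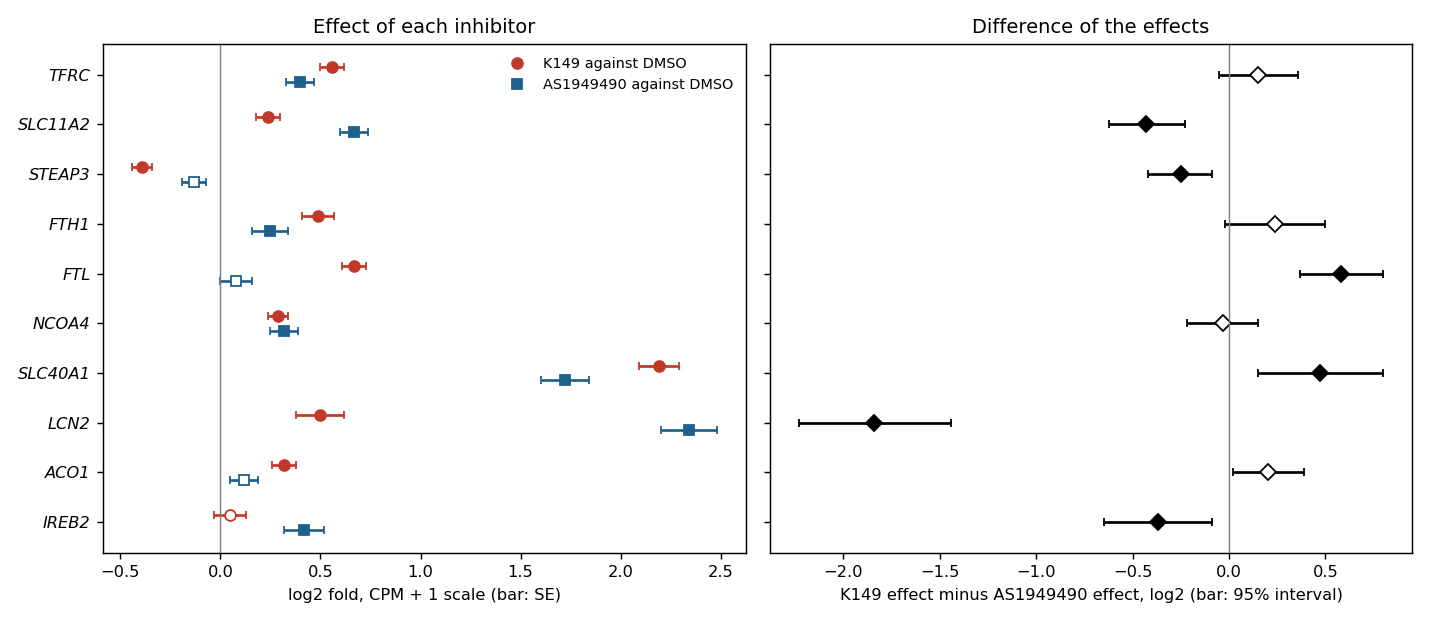
Left, log2 fold (CPM + 1 scale) of each iron gene for K149 (circles) and AS1949490 (squares) against the DMSO of the same arm, with SE. Right, K149 effect minus AS1949490 effect with its 95% interval. Filled symbols were called at adjusted p under 0.05, and LCN2 at -1.84 lies farthest from 0 on the right.

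The difference between the inhibitors was called for 6 of the 10 genes, where 40.4% of all genes tested were called. FTL had the larger effect with K149, and so did SLC40A1 on the log2(CPM + 1) scale. The ratio of mean CPM for SLC40A1 was 4.92 with K149 and 4.82 with AS1949490. In edgeR the SLC40A1 difference was 0.08 (adjusted p = 0.822). SLC11A2, IREB2 and LCN2 had the larger rise with AS1949490, and STEAP3 the larger fall with K149. The differences of FTL, SLC11A2 and LCN2 were called in every alternative tried, and those of SLC40A1, IREB2 and STEAP3 were not. Only 3 of the 10 were called without DMSO replicate 2 of the K149 arm, and 3 without AS1949490 replicate 1.

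The DMSO libraries of the 2 arms were not alike. Of the 10 genes, 5 differed between them by limma (66.2% of all genes tested). TFRC, SLC40A1, SLC11A2 and IREB2 were higher (37.1% of all genes tested) and FTL was lower (29.1%) in the DMSO of the K149 arm. The TFRC difference (0.21) was not called in edgeR (0.14, adjusted p = 0.0682), in DESeq2 (0.14, adjusted p = 0.0976), in edgeR on 8 libraries (0.05, adjusted p = 0.523), with no filter on low values (adjusted p = 0.11) or with the crossed block (0.16, adjusted p = 0.0586). Without DMSO replicate 1 of the AS1949490 arm, which the run on 8 libraries also left out, it was 0.11. LCN2 was called in either direction between the DMSO groups, at 0.27 without DMSO replicate 1 of the AS1949490 arm (limma adjusted p = 0.0261) and at -0.33 without replicate 2 (limma adjusted p = 0.00846). FTH1 was called too without that replicate 2 (-0.24, limma adjusted p = 0.0173), which made 7 genes called. Those 5 genes and NCOA4 showed no overlap between the DMSO groups, 5 higher and 1 lower, against 42.5% and 33.9% of all genes tested. SLC40A1 averaged 10.3 ± 0.701 CPM (SD, n = 3) in the DMSO of the K149 arm and 1.52 ± 0.0354 CPM (SD, n = 2) in that of the AS1949490 arm, a ratio of 6.78 (limma adjusted p = 9.72e-10). SLC11A2 averaged 102.2 ± 1.39 CPM (SD, n = 3) in the DMSO of the K149 arm and 47.0 ± 0.998 CPM (SD, n = 2) in that of the AS1949490 arm, a ratio of 2.18 (limma adjusted p = 4.85e-09). FTL averaged 1189 ± 51.7 CPM (SD, n = 3) in the DMSO of the K149 arm and 1714 ± 164 CPM (SD, n = 2) in that of the AS1949490 arm (limma adjusted p = 2.3e-05). What differed between the DMSO libraries of the 2 arms is not given in the labels, so a gene's starting level and its response to an inhibitor cannot be told apart from the arm.

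Genes whose levels followed a member most closely were found by the root mean square difference of centred log2(CPM + 1) over the 10 libraries among 13023 genes. TFRC was nearest to TMEM184C (0.0448), PAK2 (0.0474) and SLC35E1 (0.0499). FTH1 was nearest to BEST1 (0.00965), the gene that overlaps it, and then to ATP6V0D1 (0.0447), a subunit of the proton pump that acidifies lysosomes, and NDUFAF1 (0.0457). For LCN2 the smallest differences were larger, with SLC1A4 (0.298), CYP4F11 (0.361) and MTSS1 (0.372).

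Among 15 tested genes of iron transport and reduction beside the 10, 5 rose and 9 fell with K149 (median log2 fold -0.29), and 7 rose and 2 fell with AS1949490 (median 0.31). The counts of this and the following lists stand beside those of all genes tested, of which 35.8% rose and 30.6% fell with K149, and 32.1% rose and 19.5% fell with AS1949490. STEAP2, another metalloreductase, averaged 14.4 CPM with AS1949490 and 6.45 CPM in its DMSO (log2 fold 1.05, limma adjusted p = 1.96e-05), but 3.38 CPM with K149 and 4.36 CPM in its DMSO (log2 fold -0.29, limma adjusted p = 0.0213). PROM2, a membrane protein reported to promote ferritin export in vesicles, averaged 41.7 CPM with K149 and 99.6 CPM in its DMSO (log2 fold -1.24, limma adjusted p = 2.22e-09). In the other arm PROM2 averaged 26.4 CPM with AS1949490 and 18.0 CPM in its DMSO (log2 fold 0.53, limma adjusted p = 0.000186). The effects differed between the inhibitors for STEAP2 (limma adjusted p = 2.14e-05) and for PROM2 (limma adjusted p = 2.59e-08). MCOLN1, a lysosomal channel that passes iron, rose with K149 (17.4 CPM, against 10.2 CPM in DMSO, limma adjusted p = 5e-06). It averaged 17.2 CPM with AS1949490 and 17 CPM in its DMSO (limma adjusted p = 0.888), and the effects differed by 0.69 (limma adjusted p = 0.000999). MELTF, which encodes melanotransferrin, rose with both inhibitors (log2 fold 0.34 with K149, limma adjusted p = 0.00396, and 0.75 with AS1949490, limma adjusted p = 9.23e-05).

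Of 11 tested genes that act on the IRPs, on iron chaperoning or on ferritin turnover, 4 rose and 3 fell with K149, shares near those of all genes tested (35.8% and 30.6%), and 3 rose and 2 fell with AS1949490 (32.1% and 19.5% of all genes tested), or 2 and 3 after TMM or median-of-ratios scaling. FBXL5, the ubiquitin ligase subunit that senses iron and marks IRP2 for breakdown, averaged 38.9 CPM with K149 and 33.5 CPM in its DMSO (limma adjusted p = 0.011), and 32.6 CPM with AS1949490 and 19.5 CPM in its DMSO (limma adjusted p = 1.05e-05). TAX1BP1, an autophagy receptor that takes part in ferritin turnover with NCOA4, rose on the log2 scale by 0.46 with K149 (limma adjusted p = 4.1e-07) and 0.49 with AS1949490 (limma adjusted p = 8.62e-06). CUL1, the scaffold of the ligase, fell with K149 (log2 fold -0.43, limma adjusted p = 2.78e-06) and rose with AS1949490 (log2 fold 0.24, limma adjusted p = 0.00368), a rise not called after TMM scaling (0.17, adjusted p = 0.0537). PCBP2, an iron chaperone, had log2 folds of -0.21 with K149 (limma adjusted p = 0.00159) and -0.44 with AS1949490 (limma adjusted p = 4.32e-05), with 32.7% of its exon bases shared with other genes.

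Messenger RNAs of the other genes known to carry an IRE were higher with both inhibitors in most cases. Of 5 tested, 4 rose and 0 fell with K149 (median log2 fold 0.51), and 5 rose and 0 fell with AS1949490 (median 0.64). In edgeR, 4 rose and 0 fell with K149, and 3 rose and 0 fell with AS1949490, and none was lower at an unadjusted p under 0.05 in either tool. EPAS1, the hypoxia factor HIF-2α, averaged 516.4 CPM with K149 and 305.2 CPM in its DMSO (limma adjusted p = 1.41e-07), and 304.2 CPM with AS1949490 and 195.0 CPM in its DMSO (limma adjusted p = 1.93e-05). CDC42BPA, a kinase with an IRE in its 3′ UTR, rose on the log2 scale by 0.64 with K149 (limma adjusted p = 2.35e-06) and 0.90 with AS1949490 (limma adjusted p = 3.3e-06). PFN2, an actin-binding protein, rose by 0.51 with K149 (limma adjusted p = 2.76e-07) and 0.87 with AS1949490 (limma adjusted p = 1.28e-07). CDC14A, a phosphatase, had a log2 fold of 0.20 with K149 (limma adjusted p = 0.144) and rose with AS1949490 (0.43, limma adjusted p = 0.0209), a rise not called in edgeR (0.40, adjusted p = 0.0553).

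Of 19 heme genes tested, 12 rose and 4 fell with K149 (median log2 fold 0.30), where 35.8% of all genes tested rose and 30.6% fell. With AS1949490, 10 rose and 0 fell (median 0.31), where 32.1% of all genes tested rose and 19.5% fell. For AS1949490, 0 were lower at an unadjusted limma p under 0.05, and edgeR called 8 rises and 2 falls. HMOX1, heme oxygenase 1, which frees iron from heme, averaged 85.5 ± 11.4 CPM with K149 and 40.2 ± 3.72 CPM in its DMSO (SD, n = 3 each), and 148.5 ± 11.7 CPM with AS1949490 and 94.3 ± 26.2 CPM in its DMSO (SD, n = 2 each). HMOX1 rose by limma with K149 (adjusted p = 5.07e-06) and with AS1949490 (adjusted p = 0.00248). FLVCR2, a membrane transporter first described for heme, rose by 1.33 with K149 (limma adjusted p = 1.25e-09) and 1.22 with AS1949490 (limma adjusted p = 3.21e-07), and 26.5% of its exon bases are shared. ABCB6, a porphyrin transporter, rose by 0.94 with K149 (limma adjusted p = 1.52e-07) and 0.61 with AS1949490 (limma adjusted p = 0.000175), with 54.7% of its exon bases shared. ABCB10, a mitochondrial transporter of erythroid heme synthesis, fell with K149 (log2 fold -0.83, limma adjusted p = 1.42e-05) and had a log2 fold of 0.31 with AS1949490 (limma adjusted p = 0.0666).

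Of 22 iron-sulfur cluster genes tested, 3 rose and 10 fell with K149 (median log2 fold -0.16), where 35.8% of all genes tested rose and 30.6% fell. With AS1949490, 2 rose and 7 fell (median -0.10), where 32.1% of all genes tested rose and 19.5% fell. After TMM scaling 2 rose and 10 fell with AS1949490, and after median-of-ratios scaling, in edgeR and in DESeq2 1 rose and 10 fell. GLRX5, which hands on newly made clusters, had log2 folds of -0.43 with K149 (limma adjusted p = 7.56e-05) and -0.28 with AS1949490 (limma adjusted p = 0.0127). NUBP1, of the cytosolic cluster pathway, had log2 folds of -0.75 with K149 (limma adjusted p = 3.8e-07) and -0.41 with AS1949490 (limma adjusted p = 0.00118), with 36.1% of its exon bases shared. Its partner NUBP2 had a log2 fold of -0.04 with K149 (limma adjusted p = 0.724) and fell with AS1949490 (log2 fold -0.44, limma adjusted p = 0.00288).

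The systemic regulators, which set hepcidin in the liver, had 5 tested genes, of which 3 rose and 1 fell in each arm. HFE, the hemochromatosis gene, had a log2 fold of 0.01 with K149 (limma adjusted p = 0.958) and rose with AS1949490 (log2 fold 0.65, limma adjusted p = 0.000573). BMP2 rose with K149 (log2 fold 0.66, limma adjusted p = 3.12e-05) and fell with AS1949490 (log2 fold -0.42, limma adjusted p = 0.00814), and NEO1, neogenin, rose by 0.74 with K149 (limma adjusted p = 9.98e-07) and 0.47 with AS1949490 (limma adjusted p = 0.000817). The 2 low genes that follow were picked out after their values were seen. ERFE, erythroferrone, averaged 0.317 CPM with K149 and 6.36 CPM in its DMSO (log2 fold -2.49, limma adjusted p = 9.87e-11), and TFR2, a sensor of transferrin, averaged 1.02 CPM with K149 and 5.56 CPM in its DMSO (log2 fold -1.71, limma adjusted p = 1.55e-08). ERFE averaged 6.42 CPM with AS1949490 and 7.7 CPM in its DMSO (log2 fold -0.23, limma adjusted p = 0.146). TFR2 averaged 5.25 CPM with AS1949490 and 7.2 CPM in its DMSO (log2 fold -0.39, limma adjusted p = 0.0316).

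Of 12 NRF2 target genes, 11 rose and 0 fell with K149 (median log2 fold 1.01), and 10 rose and 0 fell with AS1949490 (median 0.57). By both limma and edgeR, 0 were lower at an unadjusted p under 0.05 in either arm, and edgeR called 8 rises with AS1949490. HMOX1 is in this list as well as among the heme genes. TXNRD1, thioredoxin reductase, averaged 2006 CPM with K149 and 608.5 CPM in its DMSO (limma adjusted p = 1.58e-12), and 1900 CPM with AS1949490 and 1187 CPM in its DMSO (limma adjusted p = 2.19e-06). SLC7A11, the cystine importer, rose on the log2 scale by 1.72 with K149 (limma adjusted p = 2.41e-08) and 1.14 with AS1949490 (limma adjusted p = 3.78e-05). OSGIN1, an oxidative stress response gene, rose by 1.79 with K149 (limma adjusted p = 2.5e-09) and 0.33 with AS1949490 (limma adjusted p = 0.0364), the AS1949490 call being lost after TMM scaling (0.27, adjusted p = 0.0926). SRXN1, sulfiredoxin, rose by 1.65 with K149 (limma adjusted p = 1.28e-10) and 0.62 with AS1949490 (limma adjusted p = 6.44e-05), with 85.0% of its exon bases shared with another gene. The rises of these 4 genes were larger with K149 (limma adjusted p of the difference 2.12e-07 to 0.0248), from lower DMSO levels. OSGIN1 averaged 51.3 CPM with K149 and 14.1 CPM in its DMSO, and 68.8 CPM with AS1949490 and 54.5 CPM in its DMSO. SRXN1 averaged 325.2 CPM with K149 and 102.9 CPM in its DMSO, and 446.2 CPM with AS1949490 and 290.6 CPM in its DMSO. SLC7A11 averaged 731.7 CPM with K149 and 717.7 CPM with AS1949490. Between the DMSO groups, 8 of the 12 were lower in the K149 arm and 3 higher (29.1% and 37.1% of all genes tested). BACH1, a repressor of HMOX1, ferritin and ferroportin genes, averaged 36.9 CPM with K149 and 22 CPM in its DMSO (log2 fold 0.72, limma adjusted p = 0.000595). In the AS1949490 arm BACH1 had 41.5 and 40.6 CPM with the inhibitor, against 23.8 and 41.5 CPM in DMSO, which overlapped (limma adjusted p = 0.0944).

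**Figure D4:**
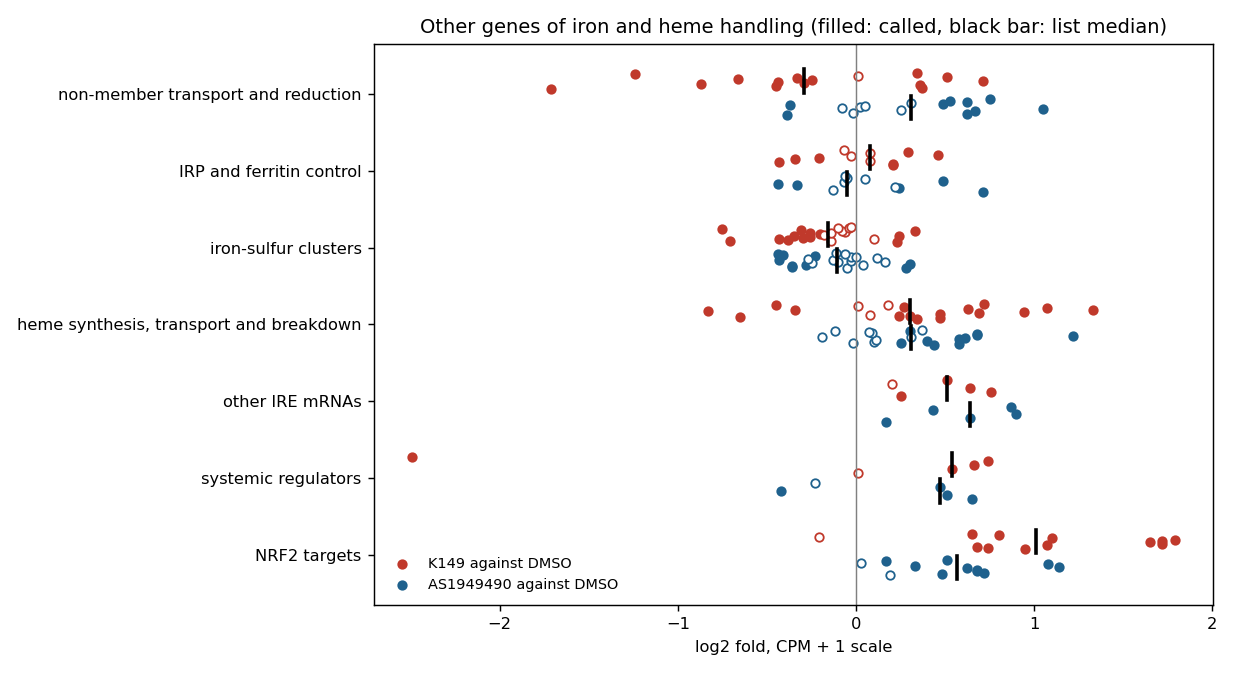
Log2 fold (CPM + 1 scale) of each tested gene in 7 lists of iron, heme and NRF2 genes, K149 above AS1949490 in each row. Filled points were called at adjusted p under 0.05 and black bars are list medians. Iron-sulfur cluster genes lie mostly left of 0 in both arms, and the other IRE messenger RNAs and NRF2 targets mostly right of it.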

How the data were processed

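Per the labels' protocols, column-purified, DNase-treated total RNA went into Ovation Solo RNA-Seq libraries. STAR 2.5.3a and HTSeq were used with the hg38 build, per the submitters' processing notes. The sources used here give neither the annotation nor the use of strand. The authors deposited CPM values for 58302 gene IDs, of which 58039 matched GENCODE 29. Values were whole multiples of about 0.05 CPM (100.0% within 0.05 of a step), from which depth was inferred. Each library came to about 20 M steps, whatever its inferred depth (18.38 to 26.35 M reads). The steps stood in for reads in edgeR and DESeq2 and are not the original counts. CPM are not counts, so limma 3.58.1 (R 4.3.3, trended variance) was run on log2(CPM + 1), fitting 4 group means to the 10 libraries together. Genes that averaged 1 CPM or more in some group were tested, and p was adjusted by Benjamini-Hochberg over all of them, with calls at 0.05. This scale understates the change of low genes. EdgeR 4.0.16 and DESeq2 1.42.0 on the step counts, scalings (TMM, median of ratios), pseudocounts, filters, a replicate block and leaving out each library were alternatives. EdgeR was also run on the 8 libraries with fully recovered reads, as an alternative chosen after seeing the data, as was a block that crossed the AS1949490 arm. Scripts were tested on simulated data.

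Groups came from the titles, and the arm of DMSO replicate 3 of the K149 arm came from its library name. The members and lists were chosen with earlier results of these data known. Named genes are the 10 members, up to 4 genes per list called in either arm (mean of at least 5 CPM, largest fold first), the 3 genes most like TFRC, FTH1 and LCN2, and the leading ferritin pseudogenes; 1 gene that the rule took is not reported here. In bulk RNA, fewer cells of a kind and less RNA per cell cannot be told apart. With 3 against 3 libraries an exact permutation test cannot go below p = 0.1, and with 2 against 2 not below 0.333, so none was used. CPM per kb used the longest coding transcript.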

Additional observations from a re-analysis of the deposited data

Results flagged for a closer look

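For 6 of the 10 iron genes, the effect of K149 minus that of AS1949490 passed the limma test of the difference itself. FTL differed by 0.58 on the log2 scale (adjusted p = 0.000492), rising with K149 and overlapping its controls with AS1949490. LCN2 differed by -1.84 (adjusted p = 3.74e-06) and SLC11A2 by -0.43 (adjusted p = 0.00213), both rising more with AS1949490. These 3 differences were called in every alternative tried. SLC40A1 differed by 0.47 (adjusted p = 0.0234), while the ratios of mean CPM were 4.92 with K149 and 4.82 with AS1949490. IREB2 differed by -0.37 (adjusted p = 0.0387) and STEAP3 by -0.25 (adjusted p = 0.0181). The calls of SLC40A1, IREB2 and STEAP3 were lost in edgeR (adjusted p = 0.822, 0.0739 and 0.0519). In all 6, the doses and the control libraries also differed between the arms, which cannot be told apart from the inhibitor.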

How the results depend on the processing

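With K149, 8 to 9 of the 10 genes were called under all alternatives (LCN2 had an adjusted p of 0.05 with no filter), and 217 of 220 single values kept direction and call. With AS1949490, 5 to 7 were called and 198 of 220 values kept both. For the difference of effects 167 of 210 did, with 3 to 7 genes called when a library was left out, and for the DMSO libraries of both arms 194 of 210. Some small values changed sign, and the cause was not tested. IREB2 with K149 ran from -0.02 to 0.15 as libraries were left out (negative without K149 replicate 3) and was -0.05 in edgeR on 8 libraries. FTL with AS1949490 became -0.0022 (median-of-ratios), -0.004 (edgeR), -0.02 (DESeq2), and ran from -0.01 (without DMSO replicate 2) to 0.18 as libraries were left out. The NCOA4 difference became 0.02 (median-of-ratios), 0.01 (edgeR), 0.04 (DESeq2), and ran from -0.08 to 0.02 as libraries were left out (positive without K149 replicate 2 or AS1949490 replicate 2). Between the DMSO groups, ACO1 became -0.0004 (edgeR) and -0.01 (DESeq2). There, FTH1 became 0.004, 0.07 and 0.01, and LCN2 0.12, 0.27 and 0.24, with the crossed block, without DMSO replicate 1 of the AS1949490 arm and in edgeR on 8 libraries, and reached -0.24 and -0.33 without DMSO replicate 2 of that arm; the values 0.27, -0.24 and -0.33 were calls, as given beside the DMSO comparison. Of calls over all genes with AS1949490, the share that was higher was 49.9% in edgeR, 47.7% in DESeq2 and 49.3% in edgeR on 8 libraries, beside 62.2% on the deposited CPM.

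Equal replicate numbers gave no clear sign of pairing, which does not exclude a shared culture or day. Deviations of same-numbered libraries correlated at 0.101, 0.046 and -0.012 in the K149 arm, and not every library correlated best with its own number. With the replicate block, all genes called were 11479 for K149 (11837 without it), 8579 for AS1949490 (9205) and 6408 for the difference (7207). In the AS1949490 arm the correlation was -0.242, and 0.242 when crossed, an opposite that is fixed with 2 libraries a group. Crossing the numbers in that arm gave 9534 calls. There the library names carry other replicate numbers than the titles, whose numbers were used. The libraries titled replicate 2 share a number in their names too, and those titled replicate 1 do not. The crossing pairs libraries of unequal number by titles and by names. Genes near 1 CPM rest on about 20 steps of 0.05 CPM per library, which limits their folds.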
